A study of Mus musculus with 2 samples.

Results

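The genes described here are the nuclear genes of oxidative phosphorylation in mouse spleen cells, taken as every gene whose symbol begins with Nduf, Uqcr, Cox4, Cox5, Cox6, Cox7, Cox8 or Atp5, without the symbols marked as pseudogenes by "-ps" (14 were left out on this ground). The rule gave 90 genes of the 30457 symbols listed in either of the deposited tables. Complex I accounted for 47 of them, complex III for 8, complex IV for 18 and complex V, the ATP synthase, for 17. By form, 81 were ubiquitous genes, 5 were tissue forms of complex IV subunits and 4 were copies annotated as processed pseudogenes under an ordinary symbol (Cox6c2, Ndufa11b, Ndufb4c and Ndufs6b). All cells came from 1 pool of 3 spleens of female C57BL/6J mice that carried subcutaneous Lewis lung carcinoma (LLC), a lung tumour line of mouse that can be transplanted. Tumour cells were injected at 10 weeks of age, and the mice were given 200 μg of anti-CD4 antibody on days 5 and 9 and gave the spleens on day 12, so both groups share the tumour and the antibody. The pooled cells were frozen, thawed and loaded (2000 cells) onto 1 BD Rhapsody cartridge, a nanowell device that captures polyadenylated RNA on barcoded beads. After reverse transcription the beads were split between TAS-Seq, which tails the cDNA with cytidine by terminal transferase while dideoxycytidine stops the tail, and BD WTA, the manufacturer's kit, which uses random primers. There was 1 library per method, so no difference below has a replicate check or a test, and the intervals given cover counting error only. Reads were counted without molecular identifiers and are not independent molecules.

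Oxidative phosphorylation takes electrons from NADH at complex I, passes them over ubiquinone, complex III and cytochrome c to oxygen at complex IV, and uses the proton gradient so built to make ATP in complex V. The subunits that carry the innermost redox and proton channels are partly encoded in the mitochondrial genome, and the remaining subunits are encoded in the nucleus and imported. Several complex IV subunits exist in a ubiquitous form and in a form restricted to heart and skeletal muscle, lung or testis. Lymphocytes at rest depend on this pathway for most of their ATP, whereas mature neutrophils hold few mitochondria and rely on glycolysis.

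The TAS-Seq library held 732 cells and the BD WTA library 708 cells after filtering, with medians of 46557 and 38426 reads per cell, and no cell barcode was shared between them. Clusters built without the 90 genes gave 362 and 392 B-like cells and 254 and 290 T-like cells in TAS-Seq and BD WTA. In TAS-Seq 116 cells stayed unnamed, in a cluster of 69 with B-cell markers and one of 47 with T and NK genes. BD WTA clusters of 86 and 69 cells shared leading genes with them (Marcks, Plac8 and Cybb, and Ccl5 and Il2rb) and were named B-like and T-like. The classes therefore do not hold quite the same subsets in the 2 libraries. Clustering both libraries together gave 20 and 26 NK-like cells. The 9 B-cell markers summed to 12088 CPM (a gene's reads scaled to a total of 1000000) in the B-like cells of TAS-Seq against 149.95 CPM in the T-like cells, and to 11082 against 48.6 CPM in BD WTA. Median depth differed between the classes, at 40812 reads in B-like and 52480 reads in T-like cells of TAS-Seq and at 35992 and 42135 reads in BD WTA.

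The stretches in front of these genes are shown first, for the genes the comparisons below turn on. The RefSeq table of promoters for GRCm38.p6 held 71 of the 90 genes, each with 250 bases before and 50 bases after the start of transcription. On either strand, 3 sets of letters were looked for, which spell cores bound by nuclear respiratory factor 1 (NRF1, CGCATGCG, which reads the same on both strands), by ETS factors such as NRF2 (CCGGAAGT) and by YY1 (AAGATGGC). The NRF1 letters stood in 14.1% of the members' promoters and in 1.91% of all 27025 promoters. For the ETS letters the shares were 7.04% and 4%, for the YY1 letters 14.1% and 2.88%, and at least 1 of the 3 stood in 33.8% of the members' promoters against 8.36% of all. None of the 3 spellings contains another, and a match is a description of the sequence, not of binding. The first 5 stretches below belong to the genes that differed between T-like and B-like cells, and the last 3 to genes that differed between the libraries and hold the NRF1 letters. Each runs from 130 bases before to 20 bases after the RefSeq start, and capitals mark a match.
Cox7a2l (chr17:83514314-83514463, minus strand): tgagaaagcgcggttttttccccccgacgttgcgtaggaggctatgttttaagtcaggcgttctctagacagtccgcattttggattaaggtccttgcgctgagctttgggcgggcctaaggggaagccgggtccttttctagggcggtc
Ndufa10 (chr1:92473739-92473888, minus strand): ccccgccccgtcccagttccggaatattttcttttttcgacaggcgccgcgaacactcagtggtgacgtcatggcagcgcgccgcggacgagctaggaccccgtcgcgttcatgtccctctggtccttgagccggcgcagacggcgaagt
Atp5md (chr19:47090628-47090777, minus strand): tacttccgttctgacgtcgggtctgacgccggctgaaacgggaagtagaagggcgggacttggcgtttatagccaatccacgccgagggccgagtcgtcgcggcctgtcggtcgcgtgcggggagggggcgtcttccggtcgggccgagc
Uqcrh (chr4:116075051-116075200, minus strand): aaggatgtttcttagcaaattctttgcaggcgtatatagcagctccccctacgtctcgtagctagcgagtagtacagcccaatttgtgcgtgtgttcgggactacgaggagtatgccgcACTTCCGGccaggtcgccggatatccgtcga
Ndufs3 (chr2:90904702-90904851, minus strand): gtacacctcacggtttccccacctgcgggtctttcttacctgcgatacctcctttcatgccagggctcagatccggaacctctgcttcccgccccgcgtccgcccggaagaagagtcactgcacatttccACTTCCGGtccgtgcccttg
Ndufa11 (chr17:56717632-56717781, plus strand): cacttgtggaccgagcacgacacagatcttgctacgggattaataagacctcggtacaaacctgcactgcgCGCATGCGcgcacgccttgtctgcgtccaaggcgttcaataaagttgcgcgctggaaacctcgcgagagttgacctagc
Atp5g2 (chr15:102671028-102671177, minus strand): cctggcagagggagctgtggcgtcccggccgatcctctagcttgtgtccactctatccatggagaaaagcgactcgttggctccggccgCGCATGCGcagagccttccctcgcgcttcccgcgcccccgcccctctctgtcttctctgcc
Atp5k (chr5:108434380-108434529, minus strand): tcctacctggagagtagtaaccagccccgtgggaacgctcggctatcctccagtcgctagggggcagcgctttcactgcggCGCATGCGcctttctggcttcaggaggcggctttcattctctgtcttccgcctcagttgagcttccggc
Uqcrh and Ndufs3 hold the ETS letters on the reverse strand close to the start, and the stretches of Cox7a2l, Ndufa10 and Atp5md hold none of the 3. For Cox7a2l and Atp5g2, the RefSeq start used here lies more than 1000 bases inside the gene as annotated by GENCODE. Ndufa11, Atp5g2 and Atp5k share the NRF1 letters, and the first was higher in TAS-Seq and the others in BD WTA. Both libraries hold cDNA from the same pool of cells, so the letters are printed as sequence and not set against the library ratios. The YY1 letters contain ATG and stood on the gene's own strand in 9 members, all between 10 and 38 bases after the start. Of all 498 matches on the gene's own strand in the table, 209 stood in that range. The windows of 30 bases below show the match, in capitals, for 6 members.
Atp5j2 (chr5:145191500-145191529, minus strand): accaggacttcAAGATGGCgtcactcggtg
Ndufa3 (chr7:3617384-3617413, plus strand): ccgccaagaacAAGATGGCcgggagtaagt
Ndufa9 (chr6:126849097-126849126, minus strand): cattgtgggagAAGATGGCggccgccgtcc
Ndufaf8 (chr11:120098933-120098962, plus strand): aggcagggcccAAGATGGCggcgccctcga
Ndufc1 (chr3:51408915-51408944, minus strand): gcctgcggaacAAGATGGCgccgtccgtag
Ndufs7 (chr10:80249462-80249491, plus strand): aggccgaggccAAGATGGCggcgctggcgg
Ndufs7 among them is also one of the genes that differed between the libraries.

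Nearly every ubiquitous member was read in the spleen cells. At least 3 reads were counted for 87 members in each library and for 86 in both, and 34 members reached 100 CPM or more in both. The members together took 1.09% of all TAS-Seq reads and 0.999% of BD WTA reads. Among the 82 members that averaged at least 10 CPM with reads in at least 10 cells, levels ran from 11.1 to 435 CPM in TAS-Seq, with a median of 101 CPM, and from 9.88 to 453 CPM in BD WTA, with a median of 87.9 CPM. The order of the levels was alike in the libraries, with a Spearman correlation of 0.85 across these 82 genes, which share cells and transcript lengths. The 8 members below that level were Cox4i2, Cox6a2, Cox6b2, Cox7a1 and Ndufa4l2 (the tissue forms), the copies Ndufa11b and Ndufs6b, and Ndufaf5, a complex I assembly factor.

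Within complex I, Ndufa2 and Ndufa6, both small accessory subunits of the arm that reaches into the matrix, had the highest mean levels. Ndufa2 stood at 185 CPM (95% Poisson interval 181 to 190) in TAS-Seq and 265 CPM (259 to 271) in BD WTA, and Ndufa6 at 221 CPM (216 to 226) and 101 CPM (97.3 to 104). The leading genes of the other complexes were as follows. In complex III, Uqcrh, the hinge subunit beside cytochrome c1, had 379 and 395 CPM, and Uqcrq, a small membrane subunit, had 129 and 125 CPM. In complex IV, Cox7a2l, a factor that joins complexes III and IV into supercomplexes, had 384 and 453 CPM, and Cox8a, the smallest subunit of the oxidase, had 409 and 312 CPM. In complex V, Atp5e, the epsilon subunit at the base of the catalytic head, had 435 and 262 CPM, and Atp5a1, the alpha subunit of the head, had 259 and 374 CPM. The study describes an enrichment of barcoded 3′ ends for TAS-Seq, so reads need not grow with transcript length. The genes were set beside each other by CPM, as above, and also per kilobase of the shortest principal transcript. The latter scale can place long transcripts too low. On that scale Atp5e led in TAS-Seq with 1032 CPM per kb, followed by Cox8a with 743 and Uqcrh with 694 CPM per kb. In BD WTA Uqcrh led with 722 CPM per kb, followed by Atp5g2 with 678 and Atp5e with 622 CPM per kb. Atp5a1, whose transcript is long, came to 105 and 151 CPM per kb.

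Single members were read in a minority of cells. When each cell was thinned to 20000 reads, which kept 707 TAS-Seq and 645 BD WTA cells and left out 25 and 63 shallower ones, the median member of the 82 was read in 30.1% of TAS-Seq cells and in 19.5% of BD WTA cells. The share was higher in TAS-Seq for 79 of the 82. This was not particular to the members. At that depth the median cell had 2363 genes in TAS-Seq and 1547 in BD WTA, and 27 and 18 members. At least 50% of cells had a read of 13 members in TAS-Seq and of 7 in BD WTA. Atp5e was read in 74.96% of TAS-Seq cells and in 45.4% of BD WTA cells, and Cox8a in 69.9% and 51.2%. No cell type here should lack the ubiquitous subunits, so the part of free RNA in these shares was not tested.

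The methods were compared to see how the amplification changes the level of each gene. Of the 82 members, 8 (9.76%) were at least 2-fold higher in TAS-Seq and 4 (4.88%) at least 2-fold higher in BD WTA. Of all 9372 genes that entered, 8.5% were called higher in TAS-Seq and 4.76% higher in BD WTA. The members' shares were thus close to the background at the main setting. Between TAS-Seq and BD WTA the median log2 ratio was 0.18 for the members, with quartiles at -0.10 and 0.63, and 0.089 for all genes. The largest ratio belonged to Ndufa11, an accessory subunit of the membrane arm of complex I, with 75.5 CPM (72.8 to 78.3) in TAS-Seq and 18.0 CPM (16.6 to 19.6) in BD WTA, a log2 ratio of 2.07. It was read in 23.1% of thinned TAS-Seq cells and in 5.12% of BD WTA cells. Its class levels went the same way, with 81.0 against 22.0 CPM in B-like cells and 68.9 against 11.7 CPM in T-like cells. The core subunits Ndufs8 and Ndufs7, which hold iron-sulfur clusters, had log2 ratios of 1.48 (80.1 and 28.6 CPM) and 1.22 (87.2 and 37.4 CPM). Ndufa13, also known as GRIM-19, had 191 and 71.5 CPM, a log2 ratio of 1.41. The other 4 were Cox5b, a matrix-side subunit of the oxidase (202 and 83.8 CPM), Ndufa6, whose values are given above, Ndufa4, which was first ascribed to complex I and is now counted with complex IV (252 and 120 CPM), and Cox7a2, the ubiquitous form of subunit 7a (190 and 91.4 CPM). The 8 genes thus held 5 subunits of complex I, 3 of complex IV and none of complexes III and V.

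The members higher in BD WTA were Atp5g3, Atp5k, Atp5g2 and Ndufaf2, of which the first 3 are membrane subunits of the ATP synthase. Atp5g3 had 115 CPM (111 to 118) in TAS-Seq and 385 CPM (378 to 392) in BD WTA, a log2 ratio of -1.75, with 99.4 against 305 CPM in B-like cells and 142 against 471 CPM in T-like cells. Atp5k, subunit e of the membrane part, had 85.0 and 210 CPM, and Ndufaf2, an assembly factor of complex I, had 15.0 and 38.1 CPM. For Atp5k the share of thinned cells with a read was nevertheless higher in TAS-Seq, at 38.2% against 28.8%, so the share gave the opposite order to the CPM. Across the 82 members, the log2 ratio had a Spearman correlation of -0.09 with transcript length and of 0.27 with GC content, given as descriptions over genes that share the libraries.

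**Figure D1:**
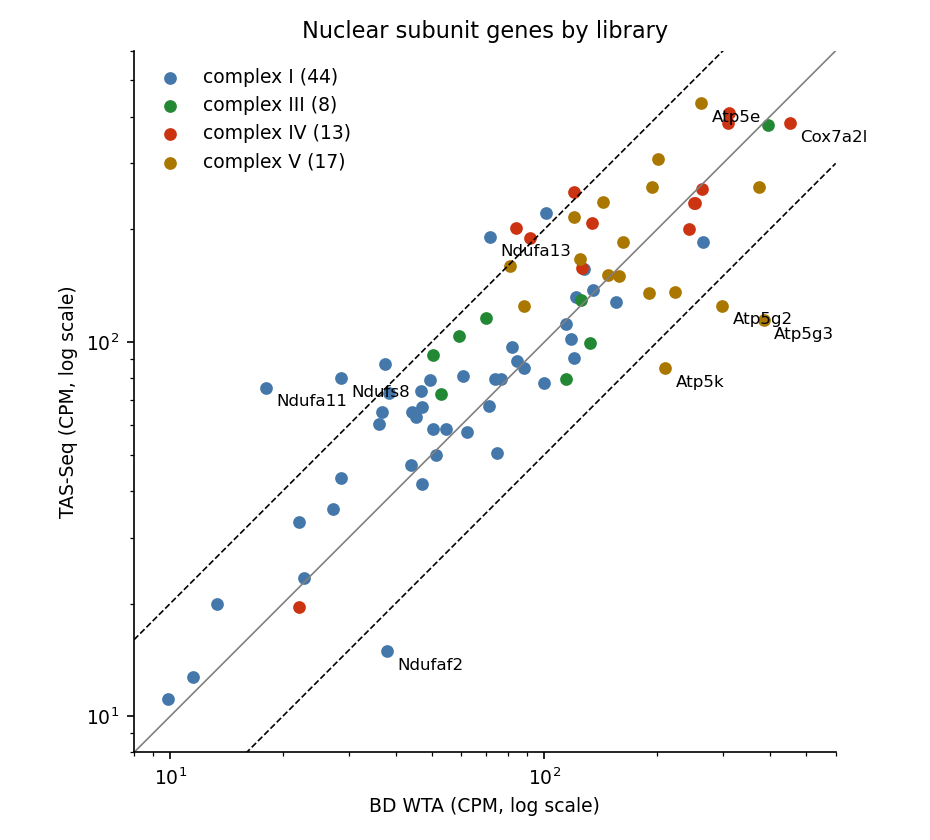
Each point is 1 of the 82 members that entered the library comparison, with its level over all filtered cells in BD WTA on the x axis and in TAS-Seq on the y axis (CPM, both axes logarithmic), coloured by complex. Ndufa11, Ndufs8 and Ndufa13 lie above the band within 2-fold and Atp5g3, Atp5k, Atp5g2 and Ndufaf2 lie below it.

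The c ring of the ATP synthase shows the difference within 1 protein, since Atp5g1, Atp5g2 and Atp5g3 encode the same mature subunit with different import signals. Of the reads on these 3 genes, TAS-Seq placed 36.0% on Atp5g1, 33.4% on Atp5g2 and 30.6% on Atp5g3. BD WTA placed 21.7%, 34.2% and 44.1% on them, so the share of Atp5g3 was larger and that of Atp5g1 smaller in BD WTA. By these reads Atp5g1 led the 3 in TAS-Seq and Atp5g3 in BD WTA. Per kilobase, a scale that can place long transcripts too low, Atp5g2 led in both libraries. It had 284 CPM per kb in TAS-Seq and 678 in BD WTA, and Atp5g3 had 160 and 539 CPM per kb. In CPM, Atp5g1 had 135 in TAS-Seq and 190 in BD WTA, and Atp5g2 had 125 and 299. Atp5g2 shares 38.4% of its 31-base words near the 3′ end with other annotated transcripts, and its closest one, Gm10175, had 4274 and 8999 reads, so the reads of Atp5g2 are uncertain. Atp5g1 shares 24.3%, and its closest transcript, Gm32885, had 304 and 2119 reads, so the shares of Atp5g1 above are uncertain as well. Atp5g3 shares none of these words.

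The share of a cell's reads on the 90 genes differed between classes in the same order in both libraries. It was lowest in cells with neutrophil markers, higher in B-like cells, higher again in T-like cells and highest in NK-like and cycling cells. In TAS-Seq the median was 0.910% of reads in B-like cells, with quartiles at 0.732% and 1.11%, and 1.16% in T-like cells, with quartiles at 0.983% and 1.38%. In BD WTA it was 0.823% (0.612% to 1.05%) in B-like and 1.09% (0.889% to 1.29%) in T-like cells. The median of T-like cells thus lay 0.25 percentage points above that of B-like cells in TAS-Seq and 0.26 in BD WTA, and the ranges of single cells overlapped widely. The NK-like cells had medians of 1.36% and 1.35%. Totals without immunoglobulin and MHC class II genes, which B-like cells read heavily, left T-like and B-like differences of 0.21 points in both libraries. Totals without mitochondrially encoded and ribosomal protein genes gave 0.52 points in TAS-Seq and 0.46 in BD WTA. Neither is given for the NK-like cells, whose share on ribosomal protein genes was lower than that of T-like cells (below). Their place above T-like cells is thus shown for totals of all reads only.

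The subunits encoded in the mitochondria did not follow that order. They took 4.93% of reads in B-like, 4.88% in T-like and 3.09% in NK-like cells of TAS-Seq, and 6.90%, 7.15% and 4.35% in BD WTA. Genes of cytosolic ribosomal proteins took 14.6% in B-like and 24.1% in T-like cells of TAS-Seq and 12.4% and 19.9% in BD WTA, so they moved with the nuclear subunits between these classes, and the difference in the latter was larger without them and the mitochondrially encoded genes in the totals (above). In NK-like cells their share was 8.65% and 9.71%. Within B-like or T-like cells of 1 library, the Spearman correlation of the share on nuclear members with that on mitochondrially encoded subunits lay between -0.03 and 0.09 over 244 to 355 thinned cells. Among the complexes it lay between -0.04 and 0.27. In such sparse counts these are descriptions only.

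**Figure D2:**
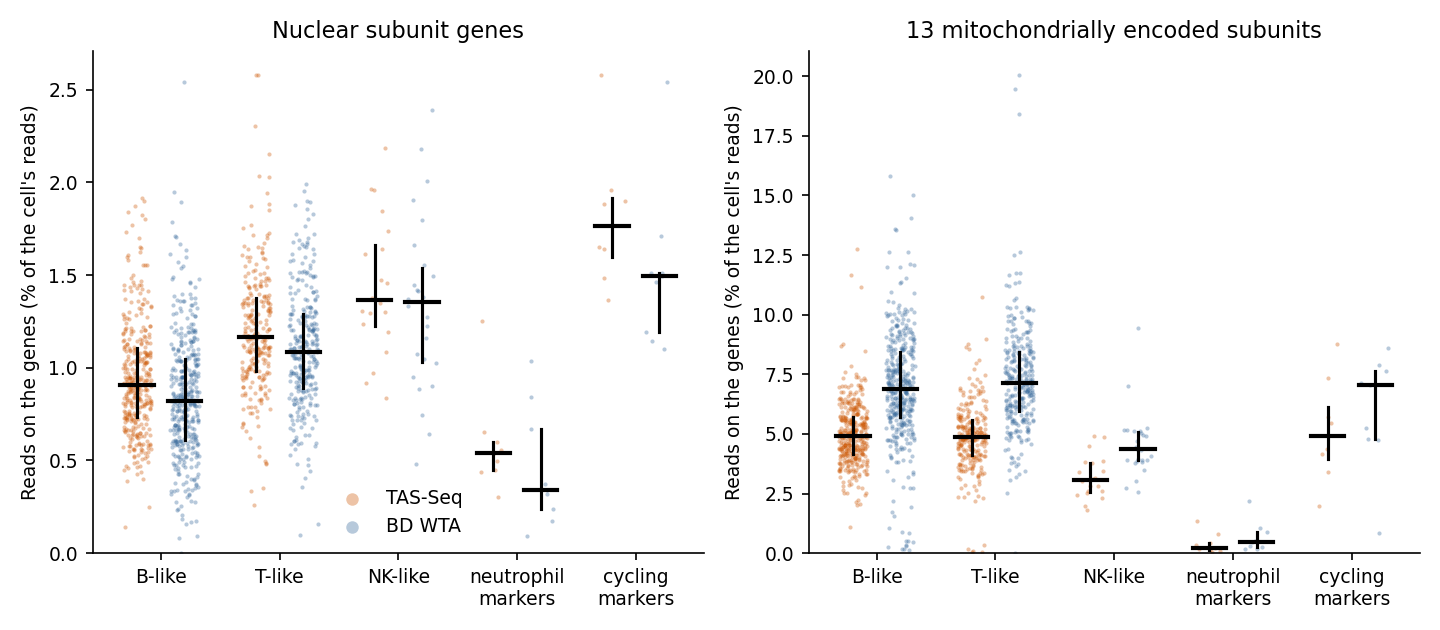
Percent of each cell's reads on the nuclear members and on mitochondrially encoded subunits, by class on the x axis, with 1 point per cell coloured by library, a horizontal bar at the median and a vertical bar over the quartiles. The medians of the nuclear members are 0.910% and 0.823% in B-like cells and 1.36% and 1.35% in NK-like cells (TAS-Seq and BD WTA), while for the mitochondrially encoded subunits the NK-like medians, 3.09% and 4.35%, are lower than those of the B-like cells.

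The number of members with a read was also compared at equal depth. At 20000 reads the median cell had a read of 24 members in B-like, 32 in T-like and 33.5 in NK-like cells of TAS-Seq, and of 15, 20 and 22 members in BD WTA. The medians of all genes detected at that depth were 2315 in B-like and 2328.5 in T-like cells of TAS-Seq and 1523 and 1564 in BD WTA. Unthinned, the B-like and T-like medians were 28 and 37 members in TAS-Seq and 15 and 20 in BD WTA.

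**Figure D3:**
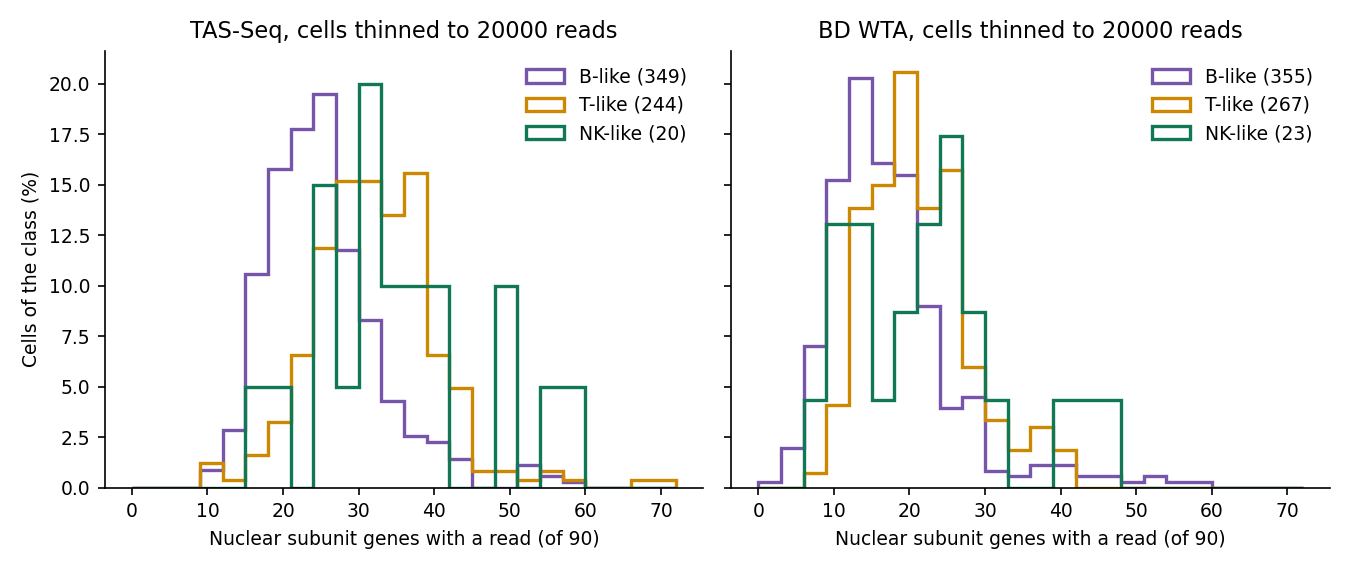
Distribution of the number of the 90 members with at least 1 read (x axis) over the cells of a class (y axis, percent of its cells), after thinning to 20000 reads, with 1 panel per library. The medians are 24 members in B-like and 32 in T-like cells of TAS-Seq and 15 and 20 in BD WTA, and the classes overlap.

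Small groups stood at both ends. In the 9 cells of each library with neutrophil markers, the members took a median of 0.543% of reads in TAS-Seq and 0.338% in BD WTA, and the mitochondrially encoded subunits 0.236% and 0.471%. These cells had a read of 14 and 8 members at 20000 reads. The 8 and 9 cells with markers of the cell cycle had medians of 1.77% and 1.49% and a read of 55 and 46 members, with 3509 and 2943 genes detected, more than in the other groups. The 3 BD WTA cells with plasma cell markers had a median of 0.348% and the 4 TAS-Seq cells with markers of plasmacytoid dendritic cells 1.19%. T-like cells with at least 5 reads of Cd4 and fewer of Cd8a and Cd8b1, and those with the reverse, had medians of 1.12% (59 cells) and 1.17% (123 cells) in TAS-Seq and of 1.01% (72 cells) and 1.13% (118 cells) in BD WTA, each within the quartiles of the other. The groups with neutrophil, cell cycle, plasma cell and plasmacytoid dendritic markers are small, and a cell in them can be a mixture of cells.

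Gene by gene, most members were somewhat higher in T-like than in B-like cells, and few by much. Of 81 members that entered, 64 were above a log2 ratio of 0 in TAS-Seq, 62 in BD WTA and 53 (65.4%) in both, against 32.4% of all 9220 genes. The median log2 ratio of T-like over B-like was 0.34 in TAS-Seq and 0.23 in BD WTA for the members, and -0.13 and -0.013 for all genes. At least 1.5-fold in the same direction in both libraries, 4 members (4.94%) were higher in T-like cells, against 10.8% of all genes, and 1 (1.23%) was higher in B-like cells, against 15.8% of all genes. Both shares lay below the background at the main setting. For T-like cells this depended on the weight of the cells, since 9 of 81 members (11.1%) against 11.4% of all genes were called with each cell weighted equally, and 11 of 80 (13.8%) against 11.5% with thinned cells. TMM factors, which assume that most genes do not differ, turned those percentages for all genes to 14.3% and 13.5% and moved the median of all genes in TAS-Seq to 0.072. Without immunoglobulin and MHC class II genes in the totals, 44 members stayed above 0 in both libraries and 12 were below in both, against 8 at the main setting. The medians of all genes moved down there as well, to -0.20 in TAS-Seq and -0.12 in BD WTA. How many of all genes lay above 0 in both was not counted at that setting.

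Of the called genes, Cox7a2l (chr17:83501918-83517330, minus strand, GRCm38) had the highest mean log2 ratio of T-like over B-like cells. C57BL/6 mice carry a short form of its protein that is less stable than that of other strains. Its level was 539 CPM in T-like and 298 CPM in B-like cells of TAS-Seq and 630 and 331 CPM in BD WTA. T-like cells were higher 1.81-fold (1.75 to 1.88) and 1.90-fold (1.84 to 1.97). Of thinned T-like cells 88.1% and 69.3% had a read, against 60.2% and 42.8% of B-like cells. No single cell held more than 3.11% of its reads in a class, and none of its words was shared with another transcript.

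Ndufa10, an accessory subunit of complex I (chr1:92439010-92473860, minus strand), had 103 CPM in T-like and 58.2 CPM in B-like cells of TAS-Seq and 101 and 57.5 CPM in BD WTA. The fold was 1.76 in both, and 28.7% of T-like against 21.5% of B-like cells had a read in TAS-Seq and 22.1% against 13.2% in BD WTA. Atp5md, a small membrane subunit that helps to hold ATP synthase dimers (chr19:47083464-47090647, minus strand), had 159 against 92.0 CPM in TAS-Seq and 113 against 68.5 CPM in BD WTA. T-like cells were higher 1.73-fold (1.62 to 1.85) and 1.65-fold (1.53 to 1.78). Uqcrh (chr4:116066965-116075071, minus strand) had 480 against 316 CPM and 496 against 324 CPM, a 1.52-fold and a 1.53-fold difference. Its call sat at the threshold and was lost with finer clusters, with joint clusters, with classes from marker reads and without immunoglobulin and MHC class II genes, where the lower of its folds was 1.41 to 1.46.

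Ndufs3 was the member higher in B-like cells. It is a core subunit of the matrix arm of complex I (chr2:90894634-90904827, minus strand). Its level was 81.5 CPM in B-like and 46.9 CPM in T-like cells of TAS-Seq and 55.4 and 31.4 CPM in BD WTA, so that T-like cells stood at 0.575 and 0.567 of B-like cells. A read was found in 21.2% of B-like and 17.2% of T-like cells in TAS-Seq and in 12.4% and 9.36% in BD WTA. Ndufs3 shares 75.4% of its 31-base words with other transcripts, foremost the pseudogene Gm12251, which had 241 and 128 reads, so its own reads are uncertain.

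**Figure D4:**
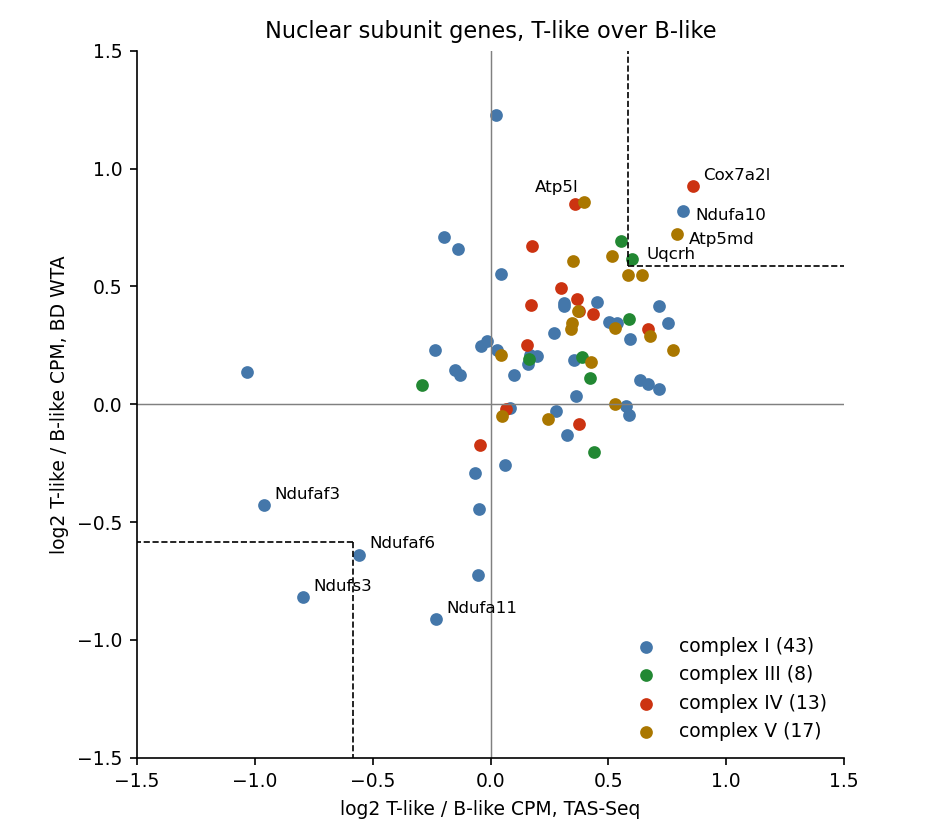
Each point is 1 of 81 members, with the log2 ratio of T-like over B-like CPM in TAS-Seq on the x axis and in BD WTA on the y axis, coloured by complex, and with lines at 0 and at the fold of 1.5. Most points lie in the upper right (53 members), Cox7a2l, Ndufa10, Atp5md and Uqcrh lie past 1.5-fold there, and Ndufs3 lies past it in the lower left.

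Just inside the threshold stood Uqcrh, and just outside it Uqcr10, Atp5h and Atp5c1, whose lower folds were 1.46 to 1.47. Atp5l, subunit g of the ATP synthase, was 1.32-fold higher in T-like cells of TAS-Seq (167 and 126 CPM) and 1.81-fold in BD WTA (195 and 107 CPM), and 79.7% of its words are shared with other transcripts. Uqcr10, a small subunit of complex III, was 1.47-fold and 1.62-fold higher and passed in place of Uqcrh with finer or joint clusters. The other members with the lowest ratios were Ndufaf3 and Ndufaf6, assembly factors of complex I, and Ndufa11. Ndufaf3 had 15.9 CPM in T-like and 31.01 CPM in B-like cells of TAS-Seq and 19.7 and 26.5 CPM in BD WTA. Ndufaf6 had 10.3 and 15.2 CPM and 7.47 and 11.6 CPM, and 1 T-like cell of BD WTA held 45.3% of its reads there. Ndufa11 had 68.9 and 81.0 CPM and 11.7 and 22.0 CPM.

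By complex, the share of genes above 0 in both libraries was highest in complex V at the main setting. All 17 genes of the ATP synthase entered, 15 were above 0 in both libraries and none was below 0 in both, with medians of 0.43 in TAS-Seq and 0.32 in BD WTA. The remaining pair, Atp5d and Atp5e, both of the central stalk, had log2 ratios of 0.048 and 0.24 in TAS-Seq and of -0.049 and -0.062 in BD WTA. Atp5h, of the peripheral stalk, was 1.56-fold and 1.46-fold higher in T-like cells, and Atp5c1, the gamma subunit of the central stalk, 1.496-fold and 1.46-fold. Atp5h shares 67.0% of its words with Gm10250, which had 946 and 374 reads, so its own reads are uncertain. In complex III, 6 of 8 genes were above 0 in both (medians 0.43 and 0.20), and in complex IV 10 of 13 (medians 0.36 and 0.40). In complex I only 22 of 43 were above 0 in both and 7 were below in both (medians 0.16 and 0.17). Its accessory subunits had 20 of 30 above in both, while of its 7 core subunits Ndufv2 alone was above in both, and Ndufs3, Ndufs7 and Ndufs8 were below in both. The core subunits' medians were -0.055 and -0.26, but their direction was not stable. Both medians were above 0 with each cell weighted equally (0.037 and 0.074) and with thinned cells (0.030 and 0.13). In TAS-Seq alone the median was above 0 with TMM factors (0.15), with finer clusters (0.054) and without mitochondrially encoded and ribosomal protein genes (0.11). Complex V kept 13 to 17 of its genes above 0 in both libraries under every alternative run. Without immunoglobulin and MHC class II genes it had 13 of 17, with 1 below 0 in both, beside 10 of 13 in complex IV, and no longer led. The complexes' shares of reads per cell differed likewise, with complex V at 0.256% of reads in B-like and 0.362% in T-like cells of TAS-Seq and at 0.251% and 0.359% in BD WTA, and complex I at 0.302% and 0.337% and at 0.248% and 0.297%.

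NK-like cells were set beside T-like cells after the values had been seen, with the joint clusters of 20 and 26 cells. Of 81 members, 51 (63.0%) in TAS-Seq and 52 (64.2%) in BD WTA were above a log2 ratio of 0 for NK-like cells. Of all genes, 48.1% and 46.6% were. In both libraries 32 of the 81 members were above 0, fewer than in either alone, so the direction of many members differed between the libraries. The same count was not made over all genes. At least 1.5-fold higher in NK-like cells in both libraries were 9 members (11.1%), against 13.5% of all genes. In T-like cells 3 (3.70%) were higher, against 20.2%. The 9 were Cox5b, Cox6b1, Cox7a2, Ndufa11, Ndufa5, Ndufb7, Ndufb8, Ndufb9 and Uqcrb, the last with 55.7% of its words shared with other transcripts. Cox5b stood at 337 CPM in NK-like and 186 CPM in T-like cells of TAS-Seq and at 231 and 73.1 CPM in BD WTA. Cox6b1, the ubiquitous subunit 6b that faces cytochrome c, was 1.83-fold and 1.601-fold higher in NK-like cells. Single cells weigh heavily here, since 1 NK-like cell held 15.3% to 62.1% of a gene's NK-like reads among these 9. The members higher in T-like cells were Cox7a2l, Ndufa6 and Ndufaf2, the last with 3 or fewer reads in the NK-like cells of each library. Cox7a2l, at 185 CPM in NK-like and 515 CPM in T-like cells of TAS-Seq and at 346 and 631 CPM in BD WTA, was read in 8 of 20 thinned NK-like cells against 85.9% of T-like cells, and in 6 of 23 against 69.3%. It was thus lower in both B-like and NK-like cells than in T-like cells.

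The tissue forms of the oxidase had few reads in these cells, and Cox6a2 in TAS-Seq was the exception. Cox4i2, the lung form of subunit 4, was listed in the BD WTA table alone, with no read in any barcode, and had none in TAS-Seq. A count of 0 allows up to 0.0778 CPM in TAS-Seq and 0.0953 CPM in BD WTA (3 reads), while its partner Cox4i1 had 386 and 309 CPM. Ndufa4l2, a form of Ndufa4 known to be induced by hypoxia, had 1 read in TAS-Seq and none in BD WTA. Cox7a1, the heart and skeletal muscle form of subunit 7a, had 2 reads in 1 cell and 11 reads in 1 cell, both B-like, and made up 0.0273% and 0.381% of the reads of the pair with Cox7a2. Cox6b2, the testis form of subunit 6b, had 109 reads in 6 cells and 68 reads in 2 cells, which is 1.09% (0.895% to 1.31%) and 0.810% (0.630% to 1.03%) of the pair with Cox6b1, itself at 257 and 264 CPM. Of the Cox6b2 reads in TAS-Seq, 71 lay in 4 B-like and 38 in 2 T-like cells. In BD WTA 34 lay in 1 B-like cell and 34 in 1 cell with plasmacytoid dendritic markers.

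Cox6a2, the form of subunit 6a found in heart and skeletal muscle (chr7:128205435-128206387, minus strand), had 536 reads in 14 TAS-Seq cells, or 13.9 CPM (12.7 to 15.1). It had 12 reads in 2 BD WTA cells, or 0.381 CPM (0.197 to 0.666), while its partner Cox6a1 had 235 and 251 CPM. It made up 5.59% (5.14% to 6.07%) of the pair's reads in TAS-Seq and 0.151% (0.0783% to 0.264%) in BD WTA. Almost all TAS-Seq reads came from 4 cells. Of these, 3 had markers of plasmacytoid dendritic cells, with 74, 105 and 147 Cox6a2 reads beside 382, 439 and 338 reads of Siglech, a surface lectin of that cell type, and with Cd79a at 6, 2 and 2 reads. The fourth, with 198 Cox6a2 reads, was B-like by its markers, with 282 reads of Cd79a and 1 of Siglech, and had 262041 reads in all. The other 10 cells had 1 or 2 reads each and were of B-like, T-like, NK-like and neutrophil-marker types, which is the level to be set beside the 4. The fourth TAS-Seq cell with plasmacytoid dendritic markers had no Cox6a2 read among 93349. In BD WTA, 4 of the 12 reads lay in 1 of 2 cells with these markers and 8 in a B-like cell of 214196 reads, which had 32 reads of Siglech and 351 of Cd79a. The other BD WTA cell with these markers had none among 73913. None of the 31-base words of Cox6a2 is shared with another transcript. Whether cells or their reads were mixed was not tested.

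**Figure D5:**
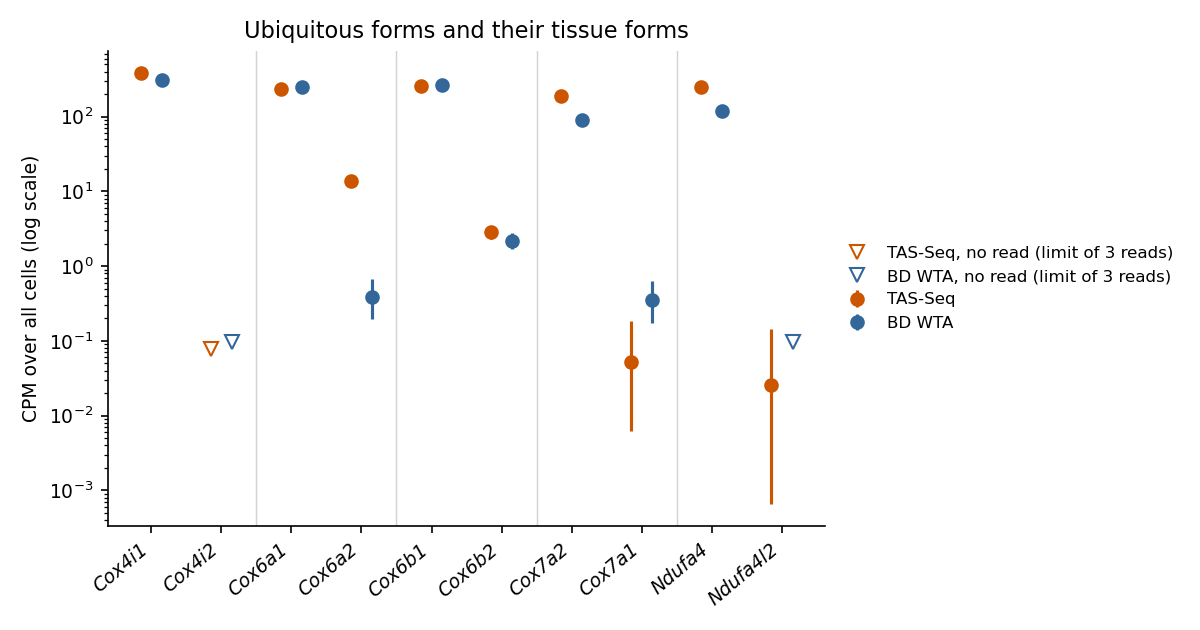
Level over all filtered cells (CPM, logarithmic y axis) of 5 ubiquitous subunit genes and, beside each, its tissue form, coloured by library, with 95% Poisson intervals for counting error and open triangles at the limit of 3 reads where no read was found. The ubiquitous forms lie between 91.4 and 386 CPM, and of the tissue forms Cox6a2 in TAS-Seq alone exceeds 10 CPM, with 13.9 CPM.

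The copies under ordinary symbols differed in their reads. Cox6c2 had 756 and 695 reads, and 61.7% of its words are those of Cox6c. Ndufb4c had 1278 and 697 reads, or 33.1 and 22.1 CPM, and Ndufb4 had 2854 and 1469 reads. Every word of Ndufb4c is shared with Ndufb4, so its reads are uncertain. Cox6c2 and Ndufb4c are among the 82 members compared. Ndufs6b had 60 and 14 reads. Ndufa11b was listed in TAS-Seq alone, with 81 reads in 61 cells, and shares 28.4% of its words with Ndufa11. Across the members, 28 share more than 10% of their words with another transcript, 8 more than 50% and 48 none.

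Other genes of the pathway were compared by the same rules. None of the 4 complex II genes was called in either comparison, with median log2 ratios of T-like over B-like of 0.025 in TAS-Seq and 0.13 in BD WTA. Of 14 assembly factors of cytochrome oxidase that entered, Surf1 was higher in T-like cells, 2.60-fold and 1.64-fold, and 1 each was called for TAS-Seq and BD WTA. Of 4 entered assembly factors of complex III, 2 were higher in TAS-Seq and none differed by class past the threshold, and none of 3 for the ATP synthase was called in either comparison. Of cytochrome c (Cycs) and Cyc1, the cytochrome c1 of complex III, Cyc1 was called higher in TAS-Seq, with 81.3 against 39.0 CPM, and neither differed by class past the threshold. Of 5 regulators that entered, Pprc1, a coactivator related to PGC-1, and Esrra, an orphan nuclear receptor that acts on mitochondrial genes, were higher in B-like cells, as were 15.8% of all genes, and Esrra was also called higher in TAS-Seq, with 36.0 against 17.7 CPM. Their T-like levels were 0.648 and 0.338 of the B-like level for Pprc1 and 0.606 and 0.554 for Esrra (TAS-Seq and BD WTA). The 13 subunits encoded in the mitochondria had no call in either comparison. In TAS-Seq against BD WTA their median log2 ratio was -0.62, where that of the nuclear members was 0.18. Of the 13, mt-Co3 (0.60) and mt-Atp6 (0.20) alone were above 0. The median log2 ratios of the 13 for T-like over B-like were -0.033 and 0.037.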

How the data were processed

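Groups were taken from the sample labels (1 TAS-Seq and 1 BD WTA library of the same cells). The tables deposited by the authors are read counts for each gene in each cell, not normalized. Adapters were removed with cutadapt (2.10 in the submitters' processing notes, another version in the study's methods) and reads aligned (Bowtie2 2.4.2) to mouse GRCm38 transcripts on the forward strand, and barcodes over the inflection of the ranked totals were kept. The study's methods describe a subtraction of background reads from TAS-Seq matrices. Whether it was applied to these tables is not stated, and it would bear on the TAS-Seq and BD WTA comparison. Mapping to transcripts can place reads on near copies of a gene.

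Barcodes with at least 500 genes and at most 25% mitochondrial reads were kept. Each gene's reads over a library or class were expressed per 1000000 reads (CPM). A gene entered at a mean of 10 CPM or more with reads in 10 cells or more, and was called past a log2 ratio of 1 between libraries, or at 1.5-fold in the same direction in both libraries between classes. Cells were clustered in Seurat 5.3.0 (20 components, resolution 1) without the members. A cluster was named with at least 3 markers of a type raised by a log2 difference of 1 and read in 50% of its cells, and with 1 marker among its top 10 genes. Scrublet in scanpy 1.11.5 called 3 and 4 doublets, which were kept at the main setting. Single cells were called by 3 markers of a type at 3 reads each. TMM factors came from edgeR 4.0.16. Gene positions, transcripts and shared 31-base words (last 400 bases of the longest transcript, coding where there was any) came from GENCODE on GRCm38. Promoters came from RefSeq, GRCm38.p6. The calling step was tested on simulated data.

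The members, lists and comparisons were chosen with earlier results of these data known. Named genes were the tissue forms and their partners, per complex the 2 highest members, the 3 highest and 3 lowest ratios between libraries, the 4 highest and 4 lowest between classes, all called members, the c ring genes and members listed in 1 table.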

Additional observations from a re-analysis of the deposited data

How the results depend on the processing

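No count or median over all members changed direction. Of 57 alternative values for the counts of called members, detected members and class differences, 41 stayed within 1.5 times the main count or within the spread, and 16 moved. The 8 of 82 members higher in TAS-Seq became 5 of 42 with a mean of at least 100 CPM, where 4.96% of all genes were called. In BD WTA 3 of these 42 were higher, against 3.38% of all genes. Both shares of the members thus lay above those of all genes at that setting. The 4 members higher in T-like cells became 7 with TMM factors (14.3% of all genes were called there), 9 with each cell weighted equally (11.4%), 11 with thinned cells (11.5%), 8 without mitochondrial and ribosomal protein genes (14.0%) and 0 at a fold of 2 (4.73%). With thinned cells the members' share, 13.8%, was above that of all genes, where it was below at the main setting. The 1 higher in B-like cells (Ndufs3) became 0 with a mean of at least 100 CPM (15.6% of all genes) and at a fold of 2 (9.21%). That count became 2 without a minimum level (16.4%), 3 with each cell weighted equally (17.1%) and 2 without immunoglobulin and MHC class II genes (18.1%). The last setting was added after seeing the data. At each of these settings the members' share was below that of all genes. The difference of 0.25 points in the share of reads between T-like and B-like cells in TAS-Seq became 0.52 without mitochondrial and ribosomal protein genes and 0.21 without immunoglobulin and MHC class II genes, and the 0.26 points in BD WTA became 0.26 with thinned cells, 0.46 and 0.21. Cox7a2l and Atp5md were called at every setting but the fold of 2, and Ndufa10 and Ndufs3 at every setting but that and the mean of at least 100 CPM. The cause of the moved counts was not tested. No paired analysis was possible because either method gave a single library, without replicate numbers to pair. With 1 library per method, counting error is the only error that can be given, and members under 10 CPM rest on the reads of few cells.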

Other observations

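A few members stood apart in 1 library only, and were picked after their values were seen. Ndufs6, an accessory subunit of complex I that carries zinc, was 1.02-fold higher in T-like than in B-like cells of TAS-Seq and 2.34-fold higher in BD WTA. Ndufaf7, an assembly factor of complex I, stood at 0.489 of the B-like level in T-like cells of TAS-Seq and at 1.10 in BD WTA. The difference between the libraries was not tested for either gene.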
